A study of Mus musculus with 12 samples.

Results

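The comparison described here asked which part of the transcriptional response to antigen was present in mouse cytotoxic T lymphocytes (CTL) when the catalytic activity of the phosphoinositide 3-kinase isoform PI3K p110δ was blocked by a drug. It set the 3 cultures that received antigen peptide together with a PI3K p110δ inhibitor (TCR+PI3Kdi) against the 3 cultures that received neither (Unstimulated), which are 6 of the 12 samples of the series, and it covered all 11022 genes of the expression table. The cultures were chosen by their labels alone. All CTL came from P14 mice, which carry a transgenic T cell receptor (TCR) specific for the gp33-41 peptide of lymphocytic choriomeningitis virus. Spleen cells of 3 female mice aged 9 to 13 weeks were activated with peptide, IL-2 and IL-12 for 48 h and then grown in IL-2. On day 7 they rested for 1 h and were given peptide at 100 ng/mL for 4 h, alone (TCR, 3 cultures), with 10 µM IC87114, which inhibits PI3K p110δ (TCR+PI3Kdi), or with 2 µM PD184252, a MEK inhibitor (TCR+MEKi, 3 cultures). IL-2 was present at 20 ng/mL throughout in every group, the unstimulated one included. No culture received IC87114 without peptide, so what the inhibitor did to resting CTL and what peptide did in its presence cannot be told apart. The cultures had been activated before, so they were effector cultures stimulated again and not naive T cells.

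Peptide bound by the TCR starts several signalling routes in a T cell. Calcium and calcineurin activate NFAT transcription factors, the RAS, MEK and ERK kinases induce AP-1 and EGR factors, and protein kinase C releases NF-κB. In lymphocytes the TCR also activates PI3K p110δ, whose lipid product recruits the kinase AKT. AKT phosphorylates FOXO1 and so removes it from the nucleus, where it would otherwise drive genes of quiescence, survival and homing. In CTL the TCR response includes the release of cytotoxic granules and the production of cytokines and chemokines.

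Gene expression was given as FPKM, which scales the fragments of a gene by its exon length and by the size of the library, from polyadenylated RNA. Differences between groups are given on the log2(FPKM + 0.1) scale, which understates the change of genes near 0. The added 0.1 is the pseudocount. A gene was called higher or lower when the limma test, fitted over all 12 samples and all genes, gave a Benjamini-Hochberg adjusted p below 0.05 and the change was over 2-fold. The p-values measure the spread between these 3 cultures a group. Within each of the 4 groups the replicates correlated at r = 0.9925 to 0.9946 across genes, and the first principal component, which held 73.5% of the variance, set the unstimulated cultures apart from the stimulated ones. The effective depth read from the steps between low values was 9990000 to 13240000 fragments for the 6 cultures compared here. All 11 CTL markers of the list used here were measured, none was called, and their summed level was 12200 to 13464 FPKM in unstimulated cultures and 16600 to 17479 FPKM with peptide and inhibitor. None of the B cell and erythroid markers was in the table. Of the myeloid markers only Fcer1g and Cd68 were, with a summed level of 44.3 to 49.8 FPKM against 47.0 to 52.1 FPKM and no call. Of the CD4 and NK cell markers, Cd4 rose (log2 1.82), Klrb1c fell (-1.21) and Zbtb7b was not called (-0.90), with a summed level of 12.1 to 14.7 FPKM against 7.61 to 10.7 FPKM. Whether those cells played a part in any result was not tested.

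With PI3K p110δ inhibited, 4 h of peptide still left 1608 of 11022 genes called, which is 14.6% of the genes tested. Of these, 789 were higher (7.16%) and 819 lower (7.43%) than in unstimulated CTL. Counts of list members called against unstimulated cultures are to be read against these shares. The rises were larger than the falls. The median size was 1.67 among the rises and 1.33 among the falls on the log2 scale, 140 rises but only 5 falls exceeded log2 of 3, and 78 rises but no fall exceeded log2 of 4. In 100 of the risen genes every unstimulated library held no more than 3 fragments, so that only a lower bound of their fold change can be given. Their log2 changes rest on the pseudocount and can exceed that bound. With these genes set at their bounds the median rise was again 1.67 and 135 rises exceeded log2 of 3. In 16 of the fallen genes every inhibited library held no more than 3 fragments. The unstimulated and inhibited cultures did not overlap in 783 of the 789 rises and 817 of the 819 falls, while they did not overlap in 7280 of all 11022 genes. Rescaling every library to the same FPKM sum moved the median change of all genes from 0.01 to -0.22 on the log2 scale and moved the split to 623 higher and 1272 lower.

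**Figure D1:**
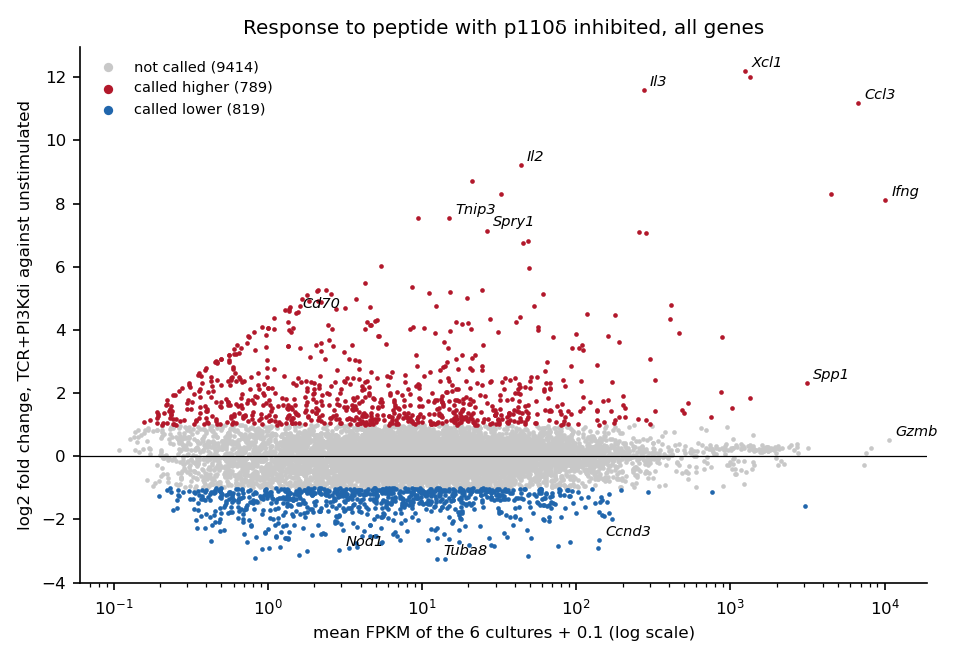
Each point is 1 of 11022 genes. The horizontal axis gives the mean FPKM + 0.1 over the 3 TCR+PI3Kdi and 3 Unstimulated cultures on a log scale and the vertical axis the log2 fold change of TCR+PI3Kdi over Unstimulated, with 789 genes called higher in red, 819 called lower in blue and the other 9414 in grey. Rises reach a log2 fold change of 12.18 (Xcl1) and falls stop at -3.25 (Tuba8).

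For scale, peptide alone left 2202 genes called against the same unstimulated cultures (20%), 978 of them higher (8.87%) and 1224 lower (11.1%). The 2 responses share their unstimulated samples, so their values are set side by side here and no correlation between them is given. The direct test between the stimulated groups called 207 genes (1.88%), of which 55 were higher with the inhibitor (0.499%) and 152 lower (1.38%). Rescaling every library to the same FPKM sum turned this balance, to 119 higher and 107 lower. At an adjusted p below 0.05 and any size, 2818 genes differed between the stimulated groups (25.6%), 1403 of them higher with the inhibitor (12.7%) and 1415 lower (12.8%), and counts of list members at that threshold are to be read against these shares.

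Most of the 12 largest rises were chemokine and cytokine genes of effector T cells. The others were Crabp2, Tnip3, Pdzk1ip1 and Spry1 (log2 8.30, 7.55, 7.54 and 7.14). Crabp2 and Pdzk1ip1 held no more than 3 fragments in any unstimulated library, so only bounds can be given for them. They were at least 209-fold and 73.6-fold higher. Xcl1, a chemokine that attracts cross-presenting dendritic cells (chromosome 1, 164931644 to 164935522 in mm10), stood at 0.53, 0.19 and 0.75 FPKM in the unstimulated cultures 1 to 3 and at 2355, 2637 and 2520.5 FPKM with peptide and inhibitor (log2 change 12.18 with an SE of 0.27, adjusted p = 2.64e-14). Ccl3, an inflammatory chemokine (chromosome 11, 83647843 to 83649378), went from 6.09, 4.61 and 6.58 to 13936, 13681 and 12538 FPKM (log2 change 11.17 with an SE of 0.12, adjusted p = 7.8e-18). In both genes every inhibited culture was far above every unstimulated one, and the 3 inhibited cultures lay close together. Ccl4, another inflammatory chemokine, rose by log2 8.31 and Ccl1 by 12.02, Ccl1 reaching 2486, 2832 and 2778 FPKM. Ccl9 held no more than 3 fragments in any unstimulated library and reached 40.2, 47.6 and 39.0 FPKM, at least 444-fold higher. In all, 9 of the 11 chemokine ligands measured rose and none fell, against 7.16% and 7.43% of all genes, and their median log2 change was 4.46 against 0.01 for all genes. Ccl5, already at 15.5 ± 2.09 FPKM (SD, n = 3) without peptide, rose to 342 ± 34.8 FPKM. Ccl25 and Cxcl16 were the members not called (-0.25, adjusted p = 0.579, and 0.27, adjusted p = 0.49). With a pseudocount of 1 the calls of Ccl12, Ccl22 and Cxcl10 against unstimulated cultures were lost (log2 0.70, 0.24 and 0.98). That of Ccl12 was also lost on rescaled libraries (0.99) and that of Ccl22 under quantile normalisation (0.83). Chemokine transcripts made up 0.0107 to 0.0115% of the summed FPKM of an unstimulated culture and 4.86 to 5.13% of that of an inhibited one, and 7.52 to 8.16% with peptide alone. Xcl1 reached 37.6%, Ccl1 48.3%, Ccl9 35.0%, Ccl4 50.5% and Ccl3 70.2% of their mean level with peptide alone, and 6 of the 11 ligands were called lower than with peptide alone. The call of Ccl1 was lost on rescaled and quantile-normalised libraries (log2 -0.86 and -0.42) and without TCR replicate 1 (-0.97) or TCR+PI3Kdi replicate 1 (-0.99), and the difference of Ccl3 was 0 under quantile normalisation.

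Of 30 cytokine and growth factor genes measured, 19 rose, 3 fell and 8 were not called, with a median log2 change of 2.00, or 1.55 when the 10 genes with unstimulated libraries at the floor of 3 fragments were set at their bounds. Ifng, the main macrophage-activating cytokine of CTL (chromosome 10, 118441046 to 118445894), rose from 68.6, 74.9 and 73.8 to 21384, 19922 and 19172 FPKM (log2 change 8.12 with an SE of 0.09, adjusted p = 7.8e-18). Interferon gamma mRNA was thus the most abundant of the induced cytokines in the inhibited cultures, at 68.1% of its mean with peptide alone (31000, 29548 and 28242 FPKM). Csf2, which encodes the myeloid growth factor GM-CSF, rose from 3.45, 3.34 and 4.08 to 449.9, 507 and 559 FPKM (log2 change 7.08 with an SE of 0.15, adjusted p = 1.23e-14), which was 15.8% of the level with peptide alone. Il3, a growth factor of mast cells and basophils, reached 592, 519 and 529 FPKM, at least 1200-fold above the floor of the unstimulated libraries, and stood at 22.2% of its level with peptide alone. Il2, the T cell growth factor, was listed at 0.19, 0 and 0 FPKM without peptide and at 64.5, 84.8 and 112 FPKM with peptide and inhibitor, at least 348-fold higher. With peptide alone Il2 stood at 649, 704 and 763 FPKM, so the inhibited cultures had 12.4% of that level. The stimulated groups did not overlap for Ifng, Csf2, Il3 or Il2, and the difference from peptide alone was called for the last 3 (log2 -2.67, -2.17 and -3.05) and not for Ifng (log2 -0.55, adjusted p = 0.000372, and 0 under quantile normalisation).

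Other cytokines kept different shares of their full induction. Il10, an anti-inflammatory cytokine, rose by log2 3.77 to 1634 ± 130.2 FPKM (SD, n = 3) and stood at 46.1% of its level with peptide alone, a difference whose call was lost on rescaled and quantile-normalised libraries (log2 -0.93 and -0.81). Il24 rose by log2 1.46 and stood at 31.2%, and Il6, at 0.74, 0.74 and 1.56 FPKM, was at least 4.04-fold above the unstimulated floor and at 13.9%. With a pseudocount of 1 the calls of Il1a, Il6, Il22, Il27 and Pdgfa against unstimulated cultures were lost. Their log2 changes were then 0.90, 0.98, 0.78, 0.49 and 0.36. The call of Vegfa was lost on rescaled libraries (0.99), where 18 genes of the list rose and 4 fell. Spp1, which encodes the matrix protein osteopontin, rose as far as with peptide alone within the error, from 881, 1022 and 1279 to 5099, 4994 and 5471 FPKM (log2 change 2.31 with an SE of 0.12, adjusted p = 5.97e-10, and log2 difference 0.04, 95% interval -0.23 to 0.30 from TCR). Csf1, the macrophage growth factor, rose by log2 1.62, and its difference from peptide alone ran from -0.05 to 0.70. Il17f, not detected above the floor without peptide, was not called with the inhibitor (adjusted p = 0.19), at 0.34, 0 and 0.43 FPKM against 3.65, 4.19 and 2.34 FPKM with peptide alone. Flt3l, Osm and Lif, 3 cytokines of the haematopoietic and IL-6 families, had log2 changes of -1.80, -1.65 and -1.37 and so fell. Of all 30 cytokine genes, 16 were called lower than with peptide alone and none higher. The list took 0.492 to 0.521% of the summed FPKM in unstimulated, 5.17 to 5.22% in inhibited and 7.2 to 7.39% in fully stimulated cultures.

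**Figure D2:**
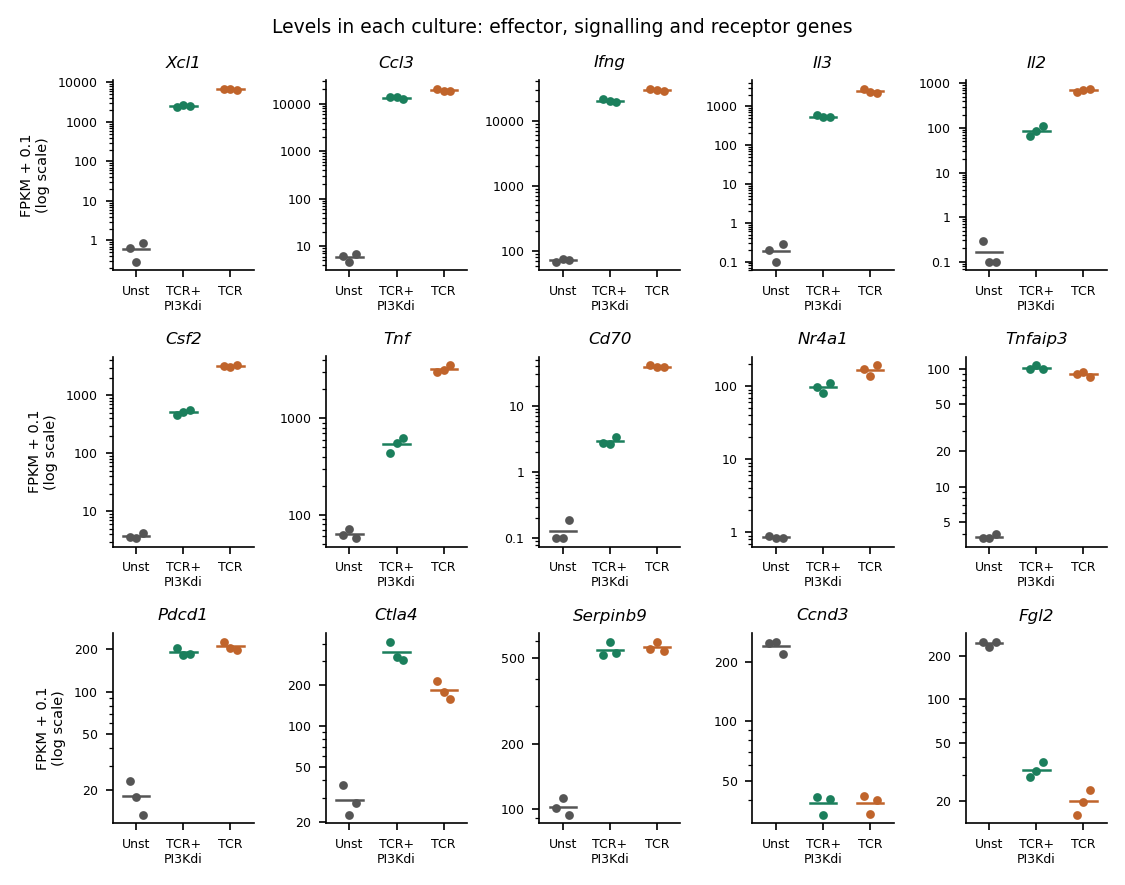
Each panel gives 1 gene, with FPKM + 0.1 on a log axis and 1 point per culture in the 3 Unstimulated, 3 TCR+PI3Kdi and 3 TCR cultures. The bar is the mean of the 3 points. In inhibited cultures Ccl3 and Ifng sit close to but below the fully stimulated level on this scale. Xcl1, Tnf and Cd70 lie between the 2 other groups and were called lower than with TCR, and Ctla4 lies above the fully stimulated level.

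The ligands of the TNF superfamily, which signal to neighbouring cells, reached very different shares of their full induction. Tnf, the inflammatory cytokine TNF, rose from 61.1, 70.7 and 57.1 to 434, 556 and 625 FPKM (log2 change 3.08 with an SE of 0.19, adjusted p = 3.17e-09), yet peptide alone took it to 3026, 3186 and 3544 FPKM, so 16.6% of that level was reached. Cd70, the ligand of CD27, was at most at the floor without peptide, at 2.61, 2.52 and 3.32 FPKM with peptide and inhibitor (at least 8.28-fold higher) and at 41.4, 38.3 and 38.4 FPKM with peptide alone, 7.16% of the full level. Lta, which encodes lymphotoxin alpha, did not pass the test with the inhibitor. Its values were 126, 143 and 122 FPKM without peptide and 103, 112 and 127 FPKM with peptide and inhibitor (log2 -0.19, 95% interval -0.45 to 0.06, adjusted p = 0.171). With peptide alone it rose to 381, 371 and 432 FPKM (log2 1.6), and the stimulated groups did not overlap (log2 -1.79, adjusted p = 2.37e-07). Cd40lg, which activates antigen-presenting cells through CD40, rose by log2 5.27 to 47.5 ± 2.47 FPKM (SD, n = 3), 42.5% of the full level, and Tnfsf14 (LIGHT) rose by 5.15 to 47.8%. Tnfsf4 (OX40 ligand) and Tnfsf10 (TRAIL) rose by 2.79 and 1.5, and neither passed the test against peptide alone, with differences of -0.17 (-0.48 to 0.14) and -0.22 (-0.45 to 0.02). In total 9 of 13 ligands rose and Tnfsf13b (BAFF) fell (-1.47), with a median of 2.73, or 2.96 with peptide alone. With a pseudocount of 1 the call of Tnfsf13b was lost (-0.82). The call of Tnfsf14 against peptide alone was lost on rescaled and quantile-normalised libraries (log2 -0.88 and -0.87).

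Short stretches before the starts of the genes at Il2 and Ccl9 are printed because both genes went from the floor of 3 fragments to high levels and their windows hold a motif of a factor that the TCR activates. Each runs 5′ to 3′ on the strand of the gene, from 250 bases before to 30 bases after its first RefSeq start in GRCm38.p6. Capitals mark the letters GGAAAA (the core of an NFAT site, here on both strands, read as TTTTCC on the other) in Il2, and TGANTCA (an AP-1 site) in Ccl9.
Il2, chr3:37125925-37126204, minus strand: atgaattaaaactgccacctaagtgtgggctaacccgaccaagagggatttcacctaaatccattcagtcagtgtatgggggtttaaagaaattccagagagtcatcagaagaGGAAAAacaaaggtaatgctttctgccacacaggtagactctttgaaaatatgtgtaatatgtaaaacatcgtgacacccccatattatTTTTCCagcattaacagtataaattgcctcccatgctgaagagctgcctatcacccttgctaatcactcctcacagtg
Ccl9, chr11:83578607-83578886, minus strand: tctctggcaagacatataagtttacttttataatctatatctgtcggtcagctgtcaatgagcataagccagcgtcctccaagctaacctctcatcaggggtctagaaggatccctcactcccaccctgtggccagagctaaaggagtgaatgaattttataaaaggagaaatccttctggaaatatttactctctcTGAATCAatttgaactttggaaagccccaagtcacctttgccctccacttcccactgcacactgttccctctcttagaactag
The 2 matches in Il2 begin 137 and 48 bases before the start and the match in Ccl9 begins 53 bases before it. Searched on both strands in windows from 250 bases before to 50 after the start, GGAAAA stood in 20.7% of the 8857 promoters that could be matched to a gene of the table, in 23.6% of those of risen genes and in 17.5% of those of fallen genes. TGANTCA stood in 4.8% of all, 10.1% of risen and 7.5% of fallen genes, and TGACGTCA (a CRE site) in 3.6%, 4.7% and 1.4%. Among the 22 cytokine genes with a promoter, 27.3% held GGAAAA and 18.2% TGANTCA. The NFAT core was more frequent, at 35.9%, in the 39 genes of DNA replication and E2F control with a promoter, a list with 28 members called lower and 0 higher. The AP-1 site stood in 0.0% of them. Cytokine genes with the NFAT core were Il2, Il6, Il13 and Il21, which rose, and Il17f and Il18, which were not called. Those with the AP-1 site were Il1a and Il6, which rose, Lif, which fell, and Il16, which was not called. A match describes letters in a window and not a bound site.

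Immediate-early transcription factors, which the TCR induces within minutes to hours, rose in 13 of 27 genes, fell in 1 and were not called in 13, with a median log2 change of 0.94 against 1.53 with peptide alone. Nr4a1, an orphan nuclear receptor used as a readout of TCR signal strength, rose from 0.79, 0.74 and 0.73 to 96.5, 81.0 and 112 FPKM (log2 change 6.81 with an SE of 0.11, adjusted p = 9.44e-16). Its relatives Nr4a2 and Nr4a3, and Egr2, a zinc finger factor downstream of NFAT and ERK, rose by log2 4.41, 4.49 and 5.95. Irf4, whose level follows TCR strength in T cells, rose from 23.6, 20.1 and 20.6 to 269, 325 and 309 FPKM (log2 change 3.81 with an SE of 0.08, adjusted p = 2.53e-14) against 387, 429.6 and 402 FPKM with peptide alone. None of the 27 was called different between the stimulated groups, but 17 were lower and 2 higher with the inhibitor at an adjusted p below 0.05 and less than 2-fold, Nr4a1 by -0.81 and Irf4 by -0.44. Egr1, Myc and Batf, which encode factors of early growth and effector differentiation, were not called with the inhibitor (log2 0.71, 0.84 and 0.04), although Egr1 and Myc had adjusted p of 0.000127 and 2.15e-08. The 1 fall was Nfatc2 (-1.53, and -1.5 with peptide alone).

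Among NF-κB genes no fall was called. Of 21 subunits, regulators and targets, 16 rose, or 11 on libraries rescaled to the same FPKM sum, and none fell (median 1.33, against 2.20 with peptide alone), and 17 were lower and 1 higher than with peptide alone at an adjusted p below 0.05. Tnfaip3, which encodes the inhibitory ubiquitin editor A20, rose from 3.58, 3.59 and 3.88 to 100, 108 and 99.3 FPKM (log2 change 4.76 with an SE of 0.06, adjusted p = 2.56e-17) and was the 1 member above peptide alone, by 0.18 (95% interval 0.05 to 0.30). Tnip3, which encodes a partner of A20, rose by 7.55, the subunit gene Rel by 3.95 and the survival gene Bcl2a1d by 4.09. For Bcl2a1d, 54.7% of 100-base stretches are shared with Bcl2a1a and Bcl2a1b, so its reads cannot be assigned with certainty. The inhibitor gene Nfkbid was the only member called against peptide alone, and it rose by 2.33 with PI3K p110δ inhibited and by 4.43 without the inhibitor (log2 difference -2.10, 95% interval -2.29 to -1.91).

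Feedback regulators of the ERK route rose in 7 of 19 genes and fell in 1, with a median of 0.58 against 0.48 with peptide alone. Spry1, an inhibitor of receptor signalling to RAS, was among the 12 largest rises of all genes, from 0.39, 0.31 and 0.15 to 53.9, 52.7 and 49.8 FPKM (log2 change 7.14 with an SE of 0.18, adjusted p = 1.08e-13). Peptide alone gave 55.1, 48.5 and 42.3 FPKM, and the difference between the stimulated groups was 0.11 with a 95% interval of -0.28 to 0.50. Phlda1, the ERK phosphatase gene Dusp4 and Spry2 rose by 3.19, 2.38 and 2.37, and the difference from peptide alone was -0.87, -0.83 and -0.30. None of the 19 was called between the stimulated groups.

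Among 29 transcription factors of effector and memory differentiation, 8 rose and 1 fell. Zeb2, a repressor of terminally differentiated effector cells, went from 0.07, 0.02 and 0.04 to 4.64, 4.93 and 5.14 FPKM (log2 change 5.14 with an SE of 0.16, adjusted p = 8.6e-13), although 337 of its exon bases overlap genes that include Zeb2os on the other strand. Ikzf3 (Aiolos), Bcl6, Prdm1 (Blimp-1), Bach2, Tcf7, Foxp1 and Tbx21 (T-bet) rose by 2.39, 2.35, 2.04, 1.87, 1.31, 1.25 and 1.07, the call of Tbx21 being lost on rescaled libraries (log2 0.84). With a pseudocount of 1 the call of Tcf7 was lost (0.88). The list of risen genes thus held factors of effector cells (Prdm1, Tbx21, Zeb2) and of memory or less differentiated cells (Bcl6, Tcf7, Bach2). Id3, an inhibitor of E proteins that marks memory precursors, fell from 6.63, 5.23 and 7.67 to 0.94, 0.53 and 0.98 FPKM (log2 change -2.87 with an SE of 0.21, adjusted p = 1.78e-08). None of the 29 was called between the stimulated groups, and the largest differences at an adjusted p below 0.05 were 0.91 for Bach2 and -0.88 for Tbx21.

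Receptors that restrain or support T cells rose in 14 of 24 genes and fell in 2, with a median of 1.45 against 1.4 with peptide alone. Pdcd1, the gene of the inhibitory receptor PD-1, rose from 23.4, 17.9 and 13.4 to 204, 183 and 186 FPKM (log2 change 3.42 with an SE of 0.14, adjusted p = 1.8e-11), and differed from peptide alone by -0.14 (95% interval -0.43 to 0.15). Lag3 and Havcr2 (TIM-3), 2 further inhibitory receptors, rose by 2.90 and 1.52, with intervals of the difference from peptide alone of -0.29 to 0.15 and -0.08 to 0.21. Cd27, the costimulatory receptor for CD70, rose by 2.98 (interval of the difference -0.15 to 0.16). Tnfrsf4 (OX40) was the largest rise of the list at 4.24, but stood at 52.0% of its level with peptide alone (log2 -0.93, adjusted p = 0.003). That difference was under 2-fold and not called, but was called without TCR replicate 2 (-1.05) or TCR+PI3Kdi replicate 1 (-1.02). Another set stood above the full response. Ctla4, an inhibitory receptor for CD80 and CD86, rose from 36.8, 22.4 and 27.4 to 418, 322 and 306 FPKM (log2 change 3.61 with an SE of 0.17, adjusted p = 1.24e-10) and reached 215, 179 and 159 FPKM with peptide alone, where the inhibited cultures were higher by 0.92 (adjusted p = 0.00125). Cd28, which binds the same ligands and costimulates, rose by 2.13 and was 0.99 above peptide alone. Tigit and the NK receptor gene Klrc1 rose by 3.36 and 2.75 and were higher than with peptide alone by 0.75 and 0.82. Icos, another costimulatory receptor, was not called against unstimulated cultures (0.89, adjusted p = 2.87e-06) or against peptide alone (0.93, adjusted p = 2.13e-05). These differences from peptide alone were under 2-fold, but on rescaled and quantile-normalised libraries those of Ctla4 (1.10 and 1.03), Cd28 (1.17 and 1.08) and Icos (1.11 and 1.02) exceeded 2-fold and were called. Slamf6 did not pass the test, at 0.73, 0.43 and 0.59 FPKM without and 0.61, 1.2 and 0.66 FPKM with peptide and inhibitor (adjusted p = 0.179). Cd200 and Cd5 were the receptors called lower than with peptide alone (-1.2 and -1.01). Cd226, an activating receptor that competes with TIGIT for its ligand, fell (log2 -1.80).

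Genes of the cytotoxic granule had a smaller median change. Of 20 members, 8 rose and none fell (median 0.61, against 0.76 with peptide alone), and none was called between the stimulated groups. Serpinb9, which protects CTL from their own granzyme B, rose from 100.3, 112 and 93.6 to 515, 597 and 526 FPKM (log2 change 2.42 with an SE of 0.08, adjusted p = 1.39e-12), and its difference from peptide alone had an interval of -0.21 to 0.12. Gzme and Gzmd, granzymes of the mouse Gzmb cluster, rose by 2.03 and 1.85, and Stx11, a membrane fusion protein needed for degranulation, by 1.67. Gzmb itself, at 9460.4, 8481 and 8279 FPKM without peptide, was at 12849.6, 12674 and 12099.6 FPKM with peptide and inhibitor and was not called (log2 0.52, adjusted p = 0.000204). Its direction turned under quantile normalisation, to log2 -0.50. Prf1, which encodes perforin, was at 655 ± 31.8 and 1249 ± 25.5 FPKM (SD, n = 3) and was not called (log2 0.93). The list took 4.15 to 4.44% of the summed FPKM in unstimulated and 5.32 to 5.69% in inhibited cultures.

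Receptors for cytokines and chemokines moved in both directions, with 5 of 32 higher and 8 lower, against 7.16% and 7.43% of all genes. Il1rl1 (ST2, the IL-33 receptor), Ccr1, Ccr7, Il6st and Cxcr6 rose by 2.14, 1.76, 1.45, 1.05 and 1.0, but on rescaled libraries the calls of Il6st and Cxcr6 were lost (log2 0.83 and 0.77), as was that of Cxcr6 under quantile normalisation, and 10 of the list were lower. The falls included 2 interferon receptor chains (Ifngr2 -2.47 and Ifnar2 -1.32), the chemokine receptors Ccr4 (-2.37), Cxcr3 (-1.90) and Ccr2 (-1.47), Il10rb (-1.54) and the egress receptor S1pr1 (-2.08). With a pseudocount of 1 the calls of S1pr1 (-0.62), Il6st (0.78) and Cxcr6 (0.99) were lost. Ifngr2, the signalling chain of the interferon gamma receptor, went from 3.44, 3.75 and 4.37 to 0.82, 0.39 and 0.7 FPKM (log2 change -2.47 with an SE of 0.26, adjusted p = 1.27e-06). Its partner Ifngr1 was not called with the inhibitor (-0.76) but fell with peptide alone (-1.96), and the difference between the stimulated groups was called (log2 difference 1.2, 95% interval 1.10 to 1.30). Ccr2, a receptor for inflammatory chemokines, went from 199, 185 and 197 to 68.3, 68.4 and 73.0 FPKM, and to 28.6, 34.4 and 39.7 FPKM with peptide alone (log2 1.04). Every inhibited culture lay between the unstimulated and the fully stimulated ones for Ccr2, and the call between the stimulated groups was lost without TCR replicate 1 (log2 0.92).

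**Figure D3:**
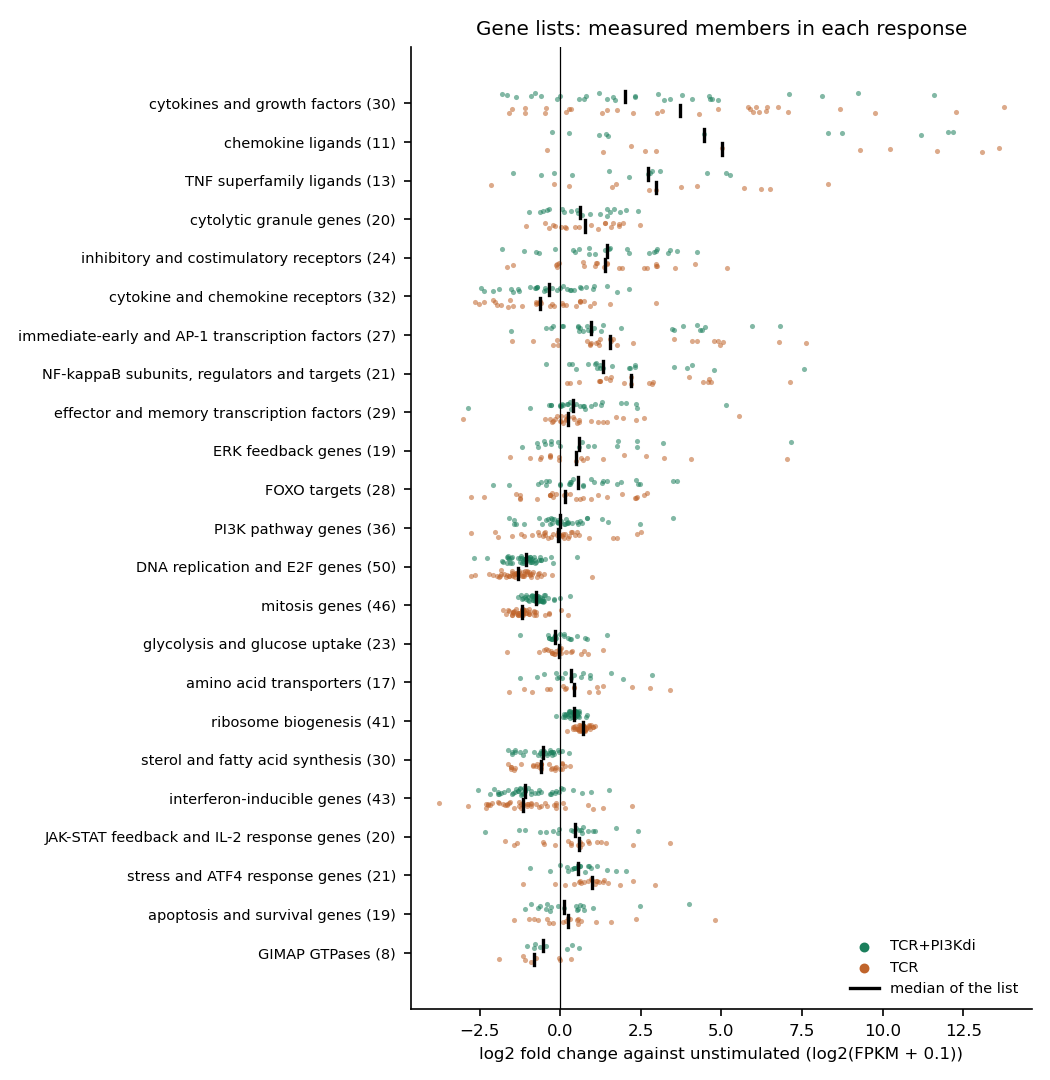
Each point is 1 measured member of a gene list, with the log2 fold change against Unstimulated on the horizontal axis for TCR+PI3Kdi and for TCR, and the bar is the list's median. Cytokine and chemokine ligands lie to the right, DNA replication, mitosis and interferon-inducible genes to the left. The 2 sets of changes share their 3 Unstimulated cultures.

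The 12 largest falls included Id3, given above, and 11 further genes. Tuba8, an alpha tubulin, went from 15.6, 23.2 and 28.8 to 1.95, 1.97 and 2.78 FPKM (log2 change -3.25 with an SE of 0.25, adjusted p = 2.92e-08) and Hemgn, a nuclear protein of blood cells, from 23.9, 26.5 and 26.1 to 1.82, 2.75 and 3.56 FPKM (log2 change -3.24 with an SE of 0.25, adjusted p = 3.2e-08). Gpr44, the prostaglandin D2 receptor CRTH2, went from 1.72, 1.52 and 0.94 to 0.11, 0.04 and 0.03 FPKM, but 1031 of its exon bases overlap Ccdc86 on the other strand. In these genes the highest inhibited culture was below the lowest unstimulated one, as it was in 817 of the 819 genes called lower. Klrb1f, a receptor of the NK cell complex, and Gpr44 held no more than 3 fragments in every inhibited library and were at least 8.69-fold and 12.3-fold lower. Igfbp4 (-3.16), Crtac1 (-3.12), Baiap3 (-2.99), AI661453 (-2.90) and Gm4951 (-2.90) were also among them. Nod1, an intracellular sensor of bacterial cell wall, changed by -2.97. Fgl2, a secreted fibrinogen-like protein with suppressive activity, was by level the largest of these, at 249.6, 230.2 and 249 FPKM without peptide and 28.9, 31.9 and 37.0 FPKM with peptide and inhibitor (log2 change -2.90 with an SE of 0.12, adjusted p = 3.77e-11).

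Cell cycle genes were lower. Of 50 genes of DNA replication and E2F control, 28 were called lower and none higher, against 7.43% of all genes lower, with a median of -1.05. The largest fall was that of Ccnd3, the cyclin D3 gene that carries T cells out of G1 (chromosome 17, 47505051 to 47599689), from 249, 254 and 221 to 41.0, 33.5 and 40.2 FPKM (log2 change -2.66 with an SE of 0.09, adjusted p = 4.62e-12). Peptide alone gave 41.7, 33.8 and 39.8 FPKM, a difference of -0.01 with a 95% interval of -0.21 to 0.19. In Ccnd3, 359 exon bases overlap Bysl. E2f2, an activator of S phase genes, went from 8.78, 8.77 and 9.0 to 1.73, 1.56 and 2.04 FPKM (log2 change -2.26 with an SE of 0.13, adjusted p = 1.66e-09), and E2f8, E2f1 and E2f7 had log2 changes of -1.61, -1.18 and -1.11. The E2f7 call was lost without TCR+PI3Kdi replicate 1 (log2 -0.95) and with a pseudocount of 1 (-0.81). Rrm2, a subunit of ribonucleotide reductase, Tk1 (thymidine kinase) and the 6 genes of the MCM2-7 helicase fell, with log2 changes of -1.76 for Rrm2, -1.80 for Tk1 and -1.55 (Mcm2) to -1.09 (Mcm6) for the helicase genes. Peptide alone called 37 of the 50 lower (median -1.30), and 19 of the 50 were higher with the inhibitor than without at an adjusted p below 0.05, none by over 2-fold. Ccnd2, the cyclin D2 gene, was the 1 member lower than with peptide alone at that threshold (-0.48), at 0.51 against unstimulated cultures. The list took 0.535 to 0.569% of the summed FPKM in unstimulated and 0.218 to 0.238% in inhibited cultures.

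The mitosis list had fewer calls than the replication list. Of 46, 7 were called lower and none higher (median -0.74), while peptide alone called 32 lower (median -1.17). On libraries rescaled to the same FPKM sum the count rose to 19 lower. Ccna2 (cyclin A2), Ccnb2 (cyclin B2), Top2a (topoisomerase II alpha), Birc5 (survivin), Aurkb, Mki67 and Nusap1 fell, with log2 changes from -1.31 (Top2a) to -1.06 (Aurkb). Ccnb2 was at 61.9, 69.0 and 73.0 FPKM without peptide, 26.9, 31.7 and 28.7 FPKM with peptide and inhibitor and 22.4, 23.9 and 26.0 FPKM with peptide alone. Mki67, which encodes the proliferation marker Ki-67, was at 49.9, 53.8 and 52.5, then 20.0, 26.9 and 28.4 and 13.2, 17.3 and 17.9 FPKM in the same order. In both genes the inhibited cultures lay between the other 2 groups without overlap. Against peptide alone, 37 of the 46 were higher and 1 lower at an adjusted p below 0.05, against 12.7% and 12.8% of all genes, none by over 2-fold. The cultures were bulk populations, so fewer cells in a phase of the cycle and less of these RNAs per cell cannot be told apart, here or for any other gene. Of the Ccna2 exon bases, 378 overlap Exosc9.

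**Figure D4:**
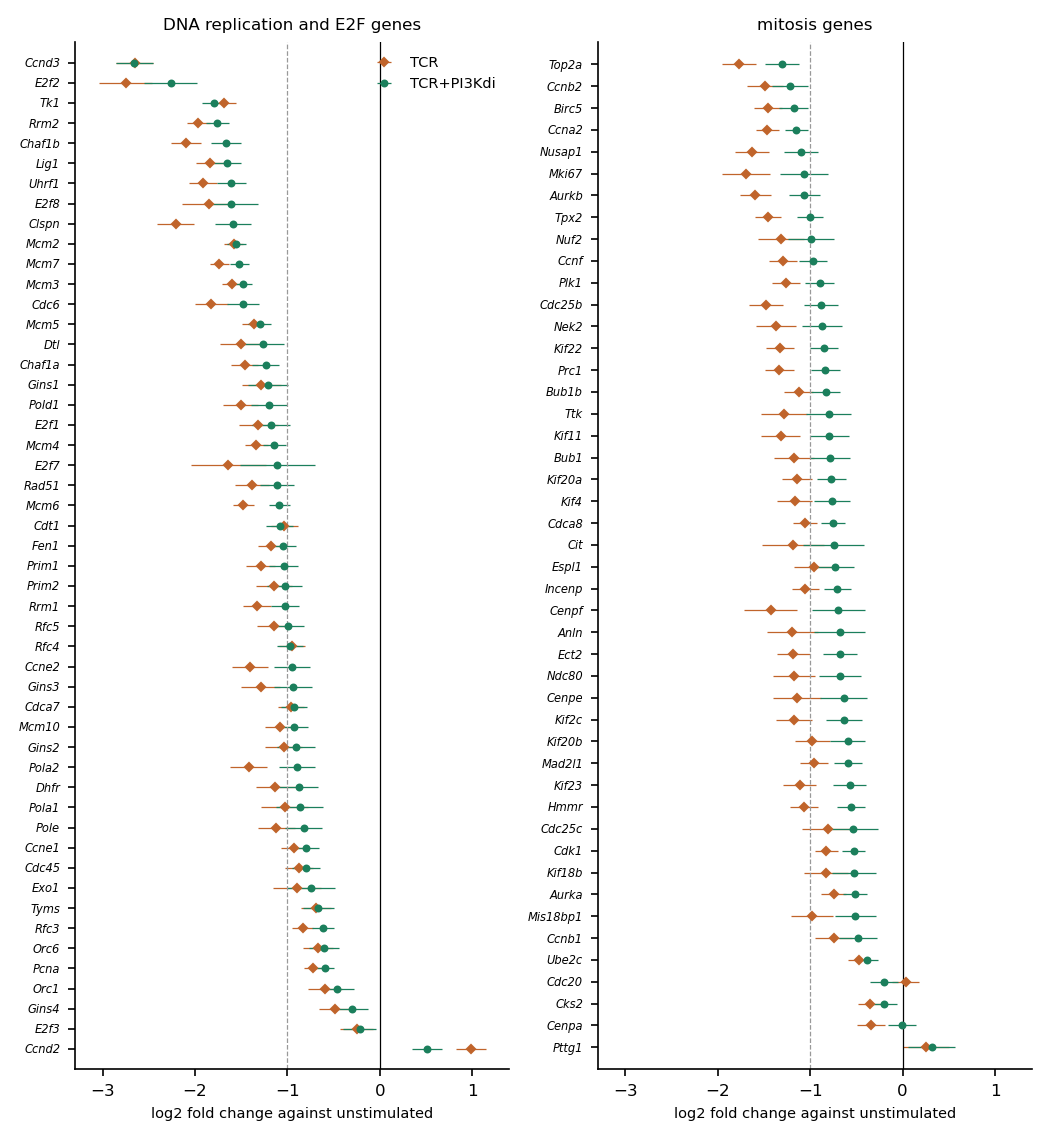
Points give the log2 fold change over Unstimulated of TCR+PI3Kdi (green circles) and TCR (orange diamonds) for each of 50 DNA replication and E2F genes and 46 mitosis genes, with bars for the 95% interval, and the dashed line marks a 2-fold fall. With TCR+PI3Kdi the medians are -1.05 for replication and -0.74 for mitosis genes, and with TCR -1.30 and -1.17.

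The windows of 3 cell cycle genes are printed because their lists held the motifs at the largest shares. Mcm6 is a replication gene and Ccnb2 and Top2a are mitosis genes. Capitals mark TTTNGCGC (an E2F site) in Mcm6 and TTTGAA (the CHR element of late cell cycle genes) in Ccnb2 and Top2a, on either strand.
Mcm6, chr1:128359676-128359955, minus strand: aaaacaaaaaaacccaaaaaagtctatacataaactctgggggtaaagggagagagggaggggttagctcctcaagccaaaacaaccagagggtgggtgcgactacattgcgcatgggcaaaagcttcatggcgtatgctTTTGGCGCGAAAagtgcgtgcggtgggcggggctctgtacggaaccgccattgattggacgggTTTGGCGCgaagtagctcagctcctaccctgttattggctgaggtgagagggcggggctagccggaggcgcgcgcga
Ccnb2, chr9:70421525-70421804, minus strand: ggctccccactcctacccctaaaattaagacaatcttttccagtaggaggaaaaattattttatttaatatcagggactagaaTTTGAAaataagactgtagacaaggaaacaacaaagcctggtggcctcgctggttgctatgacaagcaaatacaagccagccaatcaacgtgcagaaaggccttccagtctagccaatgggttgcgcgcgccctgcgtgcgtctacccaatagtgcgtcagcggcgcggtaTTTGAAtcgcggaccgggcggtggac
Top2a, chr11:99024160-99024439, minus strand: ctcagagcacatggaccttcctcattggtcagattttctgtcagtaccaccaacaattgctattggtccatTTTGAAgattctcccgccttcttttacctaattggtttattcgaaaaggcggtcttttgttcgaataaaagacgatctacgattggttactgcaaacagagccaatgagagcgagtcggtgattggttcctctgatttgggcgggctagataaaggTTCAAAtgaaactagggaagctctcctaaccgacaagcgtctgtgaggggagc
The 3 E2F matches in Mcm6 begin 110, 106 and 47 bases before the start, and the first 2 overlap. CHR matches begin 167 bases before the start and at transcribed base 5 in Ccnb2, and 179 and 23 bases before the start in Top2a. TTTNGCGC stood in 28.2% of the 39 replication genes with a promoter and in 2.7% of all promoters, 1.2% of those of risen and 3.0% of those of fallen genes. TTTGAA stood in 69.2% of the 39 mitosis genes with a promoter and in 11.9%, 10.2% and 14.6% of the same sets.

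Interferon-inducible genes were mostly lower, while Ifng was higher. Of 43, 24 were called lower and 1 higher (median -1.09), and peptide alone called 25 lower and 3 higher (median -1.17). Irf1, an interferon-induced transcription factor, changed by -1.85. Iigp1, an interferon-inducible GTPase, went from 64.4, 57.2 and 70.2 to 13, 12.4 and 17.4 FPKM (log2 change -2.17 with an SE of 0.18, adjusted p = 8.33e-08) and to 3.61, 4.23 and 6.37 FPKM with peptide alone. The GTPase genes Irgm2 and Gbp4 changed by -2.06 and -1.93, and Gbp6 by -2.56, with 82.9% of the 100-base stretches of Gbp6 shared with its neighbours. The immunoproteasome and antigen transport genes Psmb8, Psmb9, Psmb10 and Tap2 fell by 1.13, 1.29, 1.21 and 1.24 on the log2 scale, while the class I genes H2-K1, H2-D1 and B2m were not called (-0.27, -0.24 and 0.10). Ifih1, the sensor MDA5, was the 1 rise (1.52). Iigp1 and Gbp2 were called higher with the inhibitor than without (1.59 and 1.10).

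Feedback genes of IL-2 and JAK-STAT signalling moved both ways, with 4 of 20 higher and 3 lower, against 7.16% and 7.43% of all genes. Stat5a, the main transcription factor of IL-2 signalling, rose from 11.4, 12.4 and 11.2 to 61.9, 59.6 and 65.2 FPKM (log2 change 2.4 with an SE of 0.05, adjusted p = 2.64e-14), against 128, 121 and 122 FPKM with peptide alone. Jak2, Pim2 and Stat3 rose by 1.74, 1.09 and 1.02, but on rescaled libraries the calls of Pim2 and Stat3 were lost (log2 0.86 and 0.79), as was that of Stat3 under quantile normalisation. Socs1, an inhibitor of JAK kinases, went from 84.0, 79.6 and 75.0 to 18.4, 12.3 and 16.8 FPKM (log2 change -2.34 with an SE of 0.12, adjusted p = 4.33e-10), and Socs2 and the survival gene Bcl2 changed by -1.27 and -1.09. None of the 20 was called between the stimulated groups. At an adjusted p below 0.05, 9 were lower and 2 higher with the inhibitor, against 12.8% and 12.7% of all genes. Stat5a stood at 50.3% of its level with peptide alone (log2 -0.99, adjusted p = 3.4e-08). That difference was under 2-fold, but was called without TCR replicate 2, TCR replicate 3 or TCR+PI3Kdi replicate 3.

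Metabolic and biosynthetic genes showed small shifts. Of 41 ribosome biogenesis genes none was called in either direction, but the list median was 0.44 and all but Bop1 and Noc2l had an adjusted p below 0.05, at log2 changes from 0.13 (Rrp1b) to 0.82 (Noc4l). At that threshold and any size, 6887 of all 11022 genes differed from unstimulated cultures, 3496 of them higher. With peptide alone the median was 0.71, and 37 of the 41 were lower in the inhibited cultures at an adjusted p below 0.05. On libraries rescaled to the same FPKM sum the list median was 0.21, where that of all genes was -0.22. Stress and ATF4 genes rose in 4 of 21 cases (median 0.56, against 0.98 with peptide alone). Chac1, a glutathione-degrading enzyme induced by ATF4, rose by 2.04, Hspa1b by 1.73, Ddit3 (CHOP) by 1.45 and Atf4 itself by 1.15, and 16 of the 21 were below peptide alone at an adjusted p below 0.05, none by over 2-fold. The Atf4 call was lost when libraries were rescaled to the same FPKM sum (log2 0.92) and under quantile normalisation (0.99). That of Hspa1b was lost with a pseudocount of 1 (0.55).

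Among 17 amino acid transporters, 3 rose and 1 fell, against 7.16% and 7.43% of all genes. Slc1a4, a carrier of neutral amino acids, rose from 3.31, 3.42 and 3.36 to 24.1, 26.6 and 23.7 FPKM (log2 change 2.84 with an SE of 0.07, adjusted p = 5.78e-14). The glycine transporter gene Slc6a9 and the cystine transporter gene Slc7a11 rose by 1.94 and 1.56, and the lysosomal carrier Slc36a1 changed by -1.25. With a pseudocount of 1 the calls of Slc7a11 (0.51) and Slc36a1 (-0.89) were lost. Slc7a5 and Slc3a2, the subunits of the large neutral amino acid transporter of activated T cells, were not called (0.64 and 0.93), whereas both were with peptide alone (1.17 and 1.32), and the differences were -0.53 and -0.39. Glycolysis genes held 1 rise (Pfkfb3, a regulator of the pathway, 1.46) and 1 fall (Pfkm, -1.25) among 23, with a median of -0.15. Neither share was above that of all genes (7.16% higher and 7.43% lower). The Pfkm call was lost with a pseudocount of 1 (-0.94). Pfkfb4, of the same family as Pfkfb3, was not called against unstimulated cultures (0.83) but stood above peptide alone (log2 difference 1.32, 95% interval 0.82 to 1.82).

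Sterol and fatty acid synthesis genes were lower in 8 of 30 cases and higher in none (median -0.52, and -0.59 with peptide alone), and none was called between the stimulated groups. Scd1 and Scd2, the desaturases of stearic acid, fell by 1.49 and 1.48 on the log2 scale. Dhcr7, an enzyme late in cholesterol synthesis, went from 7.15, 7.63 and 6.10 to 2.77, 2.69 and 2.26 FPKM (log2 change -1.4 with an SE of 0.17, adjusted p = 4.28e-06). Lss, which closes the sterol rings, changed by -1.62, although 381 of its exon bases overlap another gene.

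Genes that the PI3K route itself acts on were read next, since the drug targets that route. Pik3cd, which encodes p110δ (chromosome 4, 149649168 to 149702566), was at 224, 229.7 and 209 FPKM in unstimulated and 215, 196 and 219 FPKM in inhibited cultures, which overlapped (log2 -0.07, 95% interval -0.19 to 0.05, adjusted p = 0.269). With peptide alone it was at 118, 115 and 124 FPKM, below every other culture (log2 -0.89 against unstimulated, and the inhibited cultures 0.82 higher, adjusted p = 3.07e-07). IC87114 acts on the enzyme and not on its transcript, so these values do not measure the inhibition. Of 28 FOXO targets, 11 rose and 2 fell (median 0.55), while peptide alone gave 8 rises and 6 falls (median 0.15). Against peptide alone 17 of the 28 were higher and none lower at an adjusted p below 0.05, where 12.7% and 12.8% of all genes were, and 5 of these were called. Irs2, an adaptor of insulin receptor signalling, rose from 0.27, 0.43 and 0.3 to 4.76, 3.98 and 5.45 FPKM (log2 change 3.48 with an SE of 0.20, adjusted p = 1.2e-09) and was 1.10 above peptide alone, with 162 of its exon bases overlapping another gene and the latter call lost without TCR+PI3Kdi replicate 3 (log2 0.99). Pik3ip1, which encodes an inhibitor of PI3K, went from 3.93, 3.93 and 3.53 to 1.16, 1.22 and 1.21 FPKM (log2 change -1.59 with an SE of 0.15, adjusted p = 3.63e-07) and to 0.5, 0.45 and 0.45 FPKM with peptide alone, so the inhibited cultures lay between the other groups. Trp53inp1, a p53-induced gene, was not called against unstimulated cultures (0.26) but stood 1.64 above peptide alone. Bcl2l11, which encodes the death protein BIM, and Btg1, an antiproliferative gene, rose with and without the inhibitor to about the same degree (2.48 and 2.42, with differences from peptide alone of 0.00 to 0.24 and -0.05 to 0.25). S1pr1, the receptor for exit from lymph nodes, fell by 2.08 on the log2 scale with PI3K p110δ inhibited and by 2.35 with peptide alone. With a pseudocount of 1 its change with the inhibitor was -0.62 and the call was lost.

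The window of Bcl2l11 is printed as the FOXO target that rose most among those whose window held a FOXO site. Capitals mark GTAAACA.
Bcl2l11, chr2:128125788-128126067, plus strand: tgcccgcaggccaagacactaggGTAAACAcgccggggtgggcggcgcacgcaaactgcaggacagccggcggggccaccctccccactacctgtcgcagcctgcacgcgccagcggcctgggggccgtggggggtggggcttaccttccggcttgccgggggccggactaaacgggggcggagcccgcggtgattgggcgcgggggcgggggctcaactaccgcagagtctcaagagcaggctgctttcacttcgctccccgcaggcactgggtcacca
The match begins 227 bases before the start. GTAAACA stood in 4 of the 22 FOXO targets with a promoter (18.2%), in 2.5% of all promoters, 3.5% of those of risen and 1.8% of those of fallen genes.

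Among 36 genes of the PI3K pathway, 4 rose and 5 fell (median -0.02), against 7.16% and 7.43% of all genes, so that the shares were not far from the background. Besides Irs2, Inpp4a (a lipid phosphatase), Phlpp1 (a phosphatase of AKT) and the kinase Tec rose, by 2.48, 1.48 and 1.31. Besides Pik3ip1, the falls were Pik3cg, which encodes p110γ (-1.42), Foxo4 (-1.43), Inpp5d, which encodes SHIP1 (-1.38), and Pik3r3 (-1.11). With a pseudocount of 1 the call of Pik3r3 was lost (-0.27). Foxo1 was not called (0.22). Irs2 and Pik3ip1 were the 2 genes called between the stimulated groups, and with a pseudocount of 1 both calls were lost (log2 0.86 and 0.58).

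Apoptosis genes held 3 rises and 1 fall among 19, against 7.16% and 7.43% of all genes. Their median was 0.11, which turned to -0.12 on libraries rescaled to the same FPKM sum, where that of all genes was -0.22. Gadd45b, an NF-κB target induced by stress, rose from 7.24, 5.99 and 6.72 to 117, 103 and 100.2 FPKM (log2 change 3.99 with an SE of 0.08, adjusted p = 1.35e-14). Fas, the death receptor, rose by 1.03, close to the 2-fold limit, and its call was lost without Unstimulated replicate 2 and without TCR+PI3Kdi replicates 1 or 3 (log2 0.97 to 0.99), and on rescaled libraries (0.80). It was also lost with a pseudocount of 1 (0.90). Of 8 GIMAP GTPases, which support lymphocyte survival, Gimap7 was called lower (-1.02), against 3 with peptide alone and 3 with peptide and inhibitor on rescaled libraries. The Gimap7 call was lost without Unstimulated replicate 3 and without TCR+PI3Kdi replicates 2 or 3 (log2 -0.95 to -1.0). Of the 8 genes, 7 were higher with the inhibitor than without at an adjusted p below 0.05, against 12.7% of all genes.

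A few genes changed in the inhibited cultures but not, by the same test, with peptide alone. Tbc1d4, a Rab GTPase-activating protein phosphorylated by AKT, went from 0.43, 0.52 and 0.62 to 1.97, 1.87 and 1.56 FPKM (log2 change 1.61 with an SE of 0.18, adjusted p = 1.97e-06), and peptide alone gave 0.39, 0.35 and 0.43 FPKM (-0.34, adjusted p = 0.108). The difference between the stimulated groups was itself called (log2 difference 1.95, 95% interval 1.57 to 2.34). Klrd1, which encodes the NK receptor chain CD94, rose from 47.7, 41.3 and 65.1 to 124, 118 and 114 FPKM (log2 change 1.23 with an SE of 0.11, adjusted p = 2.42e-07) and stood at 56.1, 56.0 and 58.0 FPKM with peptide alone. Camsap2, a microtubule minus-end protein, Klhl24 and Tbc1d30 rose by 1.30, 1.33 and 1.49, and were 1.12, 1.02 and 1.06 above peptide alone. Abca1, the cholesterol exporter, rose by 1.70 with the inhibitor, was not called without it (0.55, adjusted p = 0.016) and differed by 1.15. In the other direction, Cd72, a ligand of CD100 better known on B cells, went from 2.37, 2.04 and 1.6 to 0.67, 0.67 and 0.73 FPKM (log2 change -1.4 with an SE of 0.21, adjusted p = 3.71e-05) and stood at 3.00, 2.14 and 2.24 FPKM with peptide alone. In Cd72, 1423 exon bases overlap Tesk1 on the other strand, and since the strand setting of the counting is not given, reads of the 2 genes cannot be told apart. Tmem158, Igf2bp2 (an RNA-binding protein), Pilrb2 and D5Ertd605e changed by -1.30, -1.32, -1.28 and -2.54 with the inhibitor, and by 0.00, -0.24, -0.22 and -0.74 with peptide alone.

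With a pseudocount of 1 the calls against unstimulated cultures were lost for Tbc1d4, Tbc1d30, Klhl24, Abca1, Cd72, Tmem158, Igf2bp2, Pilrb2 and D5Ertd605e (log2 changes of 0.80 to 0.88 for the rises and -0.96 to -0.62 for the falls), and those of Klrd1 and Camsap2 remained. The calls between the stimulated groups were lost without 1 library for Klhl24 (TCR replicate 1 or TCR+PI3Kdi replicates 2 or 3, lowest log2 difference 0.92), Tbc1d30 (TCR replicate 1, 0.95), Igf2bp2 (TCR+PI3Kdi replicate 2, -0.99) and Pilrb2 (TCR replicate 1, -0.99). With a pseudocount of 1 these calls were lost for Camsap2 (log2 difference 0.96), Abca1 (0.61), Klhl24 (0.65) and Tbc1d30 (0.63). They were also lost for Tmem158 (-0.72), Igf2bp2 (-0.65), Pilrb2 (-0.49) and D5Ertd605e (-0.56). On rescaled libraries they were lost for Igf2bp2 (-0.91) and Pilrb2 (-0.89), and under quantile normalisation for Klhl24 (0.96). Further genes moved the same way in both responses to different degrees. Atp6v0d2, a subunit of the vacuolar proton pump, went from 0.14, 0.15 and 0.63 to 4.87, 3.51 and 5.01 FPKM, above the 1.68, 1.25 and 1.51 FPKM with peptide alone (log2 difference 1.52, 95% interval 0.80 to 2.25). A930038C07Rik and the Ly49 receptor gene Klra5 rose by 4.16 and 2.21 and stood 1.43 and 1.22 above peptide alone, where Klra5 was not called against unstimulated cultures (0.99). Acat2, which makes acetoacetyl-CoA, went from 12.9, 11.8 and 12.4 to 4.86, 3.55 and 4.90 FPKM and to 1.53, 1.36 and 1.82 FPKM with peptide alone, but shares 35.3% of its 100-base stretches with Acat3. Id1, an inhibitor of E proteins like Id3, changed by -2.33 with the inhibitor and by -1.2 without. The call of the Id1 difference was lost without TCR+PI3Kdi replicate 2 (log2 -0.70), on rescaled libraries (-0.96) and with a pseudocount of 1 (-0.66). Gm4841, of the interferon-inducible GTPases, changed by -2.39 and -3.53. The call of its difference was lost without TCR+PI3Kdi replicate 3 (0.81) and with a pseudocount of 1 (0.29).

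**Figure D5:**
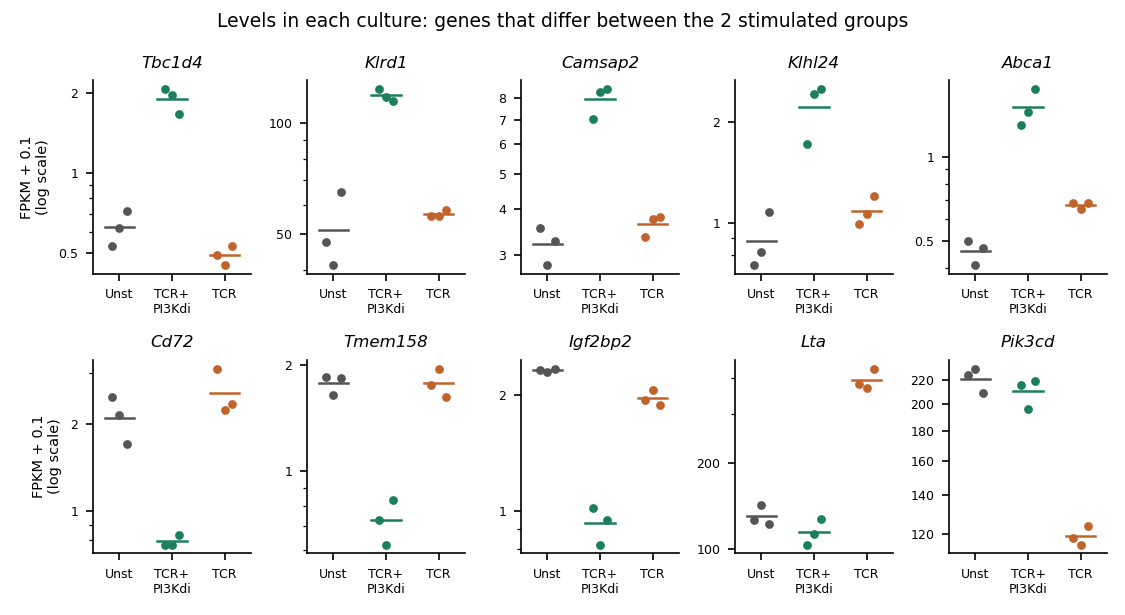
Each panel gives 1 gene, with FPKM + 0.1 on a log axis and 1 point per culture, and the bar is the mean of the 3 points. Tbc1d4, Klrd1, Camsap2, Klhl24 and Abca1 are highest and Cd72, Tmem158 and Igf2bp2 lowest in the TCR+PI3Kdi cultures, while Lta and Pik3cd in these cultures sit near the unstimulated level.

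For another set the 95% interval of the difference between the stimulated groups lay within 0.5 either side of 0 on the log2 scale. The largest rises of this kind were Spry1, Nrp1 (neuropilin-1, a coreceptor found on stimulated T cells), Tnfaip3, Ncs1 (a calcium sensor) and Rgs16 (an inhibitor of chemokine receptor signalling). Nrp1 rose from 0.3, 0.26 and 0.39 to 17.5, 16.8 and 16.1 FPKM (log2 change 5.35 with an SE of 0.12, adjusted p = 3.31e-14), against 18.4, 17.2 and 16 FPKM with peptide alone. Ncs1 and Rgs16 rose by 5.17 and 4.79, with differences from peptide alone of -0.13 and -0.24. The largest falls of this kind included Susd3, P2ry14 (a receptor for UDP-glucose), Ccnd3 and Rab37, at -2.83, -2.72, -2.66 and -2.65. Their differences from peptide alone were 0.15 (Susd3), -0.11 (P2ry14), -0.01 (Ccnd3) and -0.14 (Rab37).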

How the data were processed

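RNA was taken from 12 cultures of P14 CTL, 3 in each of 4 groups named in the labels, as 300 ng of total RNA, and TruSeq stranded mRNA libraries were read as paired 100-base reads. Per the labels and the study's methods, the authors aligned reads to mm10 with STAR 2.4.2a, counted them against RefSeq genes with Subread 1.5.0 (strand setting not given in the sources used here), filtered low genes and applied TMM scaling in edgeR. The deposited values are FPKM per gene, computed by the authors over non-overlapping exon length. The authors' own tests used counts with limma-voom, and counts were not used here.

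FPKM were analysed as log2(FPKM + 0.1) with limma 3.58.1 in R 4.3.3 (moderated test with an intensity trend), fitting the means of the 4 groups over all 12 samples and 11022 genes without a further filter, with Benjamini-Hochberg adjustment. A call needed an adjusted p below 0.05 and a change over 2-fold. The script was checked on simulated data. Named genes were the 12 largest rises and 12 largest falls, the 4 largest changes of each list, the genes with the largest differences from peptide alone or with an interval within 0.5 of 0, Pik3cd and genes the study discusses. Other genes named in the text, such as members that were not called, were chosen after their values were seen. Genes and lists were chosen with earlier results of these data known. The 28 lists hold 697 entries. Whole reads could not be recovered from the FPKM (56.2 to 73.6% of low values lay within 0.15 of a whole number, against 30% by chance), so depth is an estimate, and floors of 3 fragments cover counting error only. Effective depth over all 12 libraries was 7820000 to 13240000. Of the 11022 genes, 48 could not be matched to RefSeq. Promoter windows came from RefSeq (GRCm38.p6). Reads shared between genes were estimated from 100-base stretches of the exons of 133 of the 134 named genes, of which 4 shared over 10%, and 16 overlapped another gene's exons.

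Same-numbered cultures of TCR+PI3Kdi and TCR deviated together (correlations of 0.451, 0.376 and 0.239 over 9899 genes), so a fit with the replicate number as a block was run as an alternative. Whether a number marks 1 mouse is not given in the sources used here, and the labels name no batch. Some genes of the lists and of the rule for named genes are not reported here.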

Additional observations from a re-analysis of the deposited data

How the results depend on the processing

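The counts depend most on the pseudocount and on how the 2-fold limit is applied. With a pseudocount of 1 the calls were 979 for TCR+PI3Kdi against Unstimulated (513 higher and 466 lower), 1405 for TCR against Unstimulated and 90 for TCR+PI3Kdi against TCR. Testing against the 2-fold limit itself gave 803 (490 higher and 313 lower), 1174 and 27, and no fold limit gave 6887, 7559 and 2818. Leaving out each replicate in turn gave 1581 to 1633, 2172 to 2268 and 195 to 241. For TCR+PI3Kdi against Unstimulated a pseudocount of 0.01 gave 1765, a filter at a mean of 1 FPKM 1280 of 9899 genes, rescaling to the same FPKM sum 1895, quantile normalisation 1642 and no intensity trend 1602. The same rescaling changed the split of TCR+PI3Kdi against TCR from 55 higher and 152 lower to 119 higher and 107 lower, and that of TCR against Unstimulated to 647 higher and 2276 lower.

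The same-numbered cultures of TCR+PI3Kdi and Unstimulated did not deviate together (correlations of 0.009, 0.114 and -0.062), whereas those of TCR+PI3Kdi and TCR did. With the replicate block the calls were 1610 (789 higher and 821 lower), 2206 for TCR against Unstimulated and 209 for TCR+PI3Kdi against TCR. The block changed no call of a named gene in TCR+PI3Kdi against Unstimulated.

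For the named genes of TCR+PI3Kdi against Unstimulated, 1951 of the recomputed values kept direction and side of the threshold, 48 kept direction but lost the call, and 1 reversed, Gzmb under quantile normalisation (log2 -0.50). The cause was not tested. For the named genes of TCR+PI3Kdi against TCR, 1864 values kept direction and side, 63 lost the call, 19 gained one and 54 reversed. None of the reversed ones was a called difference. Tested against the 2-fold limit itself, calls of this comparison were lost for Xcl1, Cd40lg, Il10, Irs2, Pik3ip1, Ccr2 and Klrd1, among others. For genes with at most 3 fragments in every library of a group the depth gives a bound and no fold. No library held CTL given IC87114 without peptide.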
